A study of Mus musculus with 8 samples.

Results

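The genes described here mark the nephron downstream of the proximal tubule: the loop of Henle, the distal tubule and the collecting duct. They are 38 genes listed by symbol, and each is represented by the probe set with 1 gene symbol that had the highest mean over the arrays. All 38 were measured, of 22180 genes in all. Of these, 37 had a mean above the median gene mean of 4.92 on the log2 scale, and Elf5 lay below it. They were set in the thick ascending limb (8 genes), the distal convoluted and connecting tubule (11), the principal cells (9) and the intercalated cells (6) of the collecting duct, with 4 transcription factors of these segments. The values come from glomeruli isolated from mouse kidney, the filtration units, and most of the listed genes belong to tubule cells outside them. RNA was hybridised to Affymetrix arrays, 1 array per sample.

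All mice were 13 weeks old and had been given doxycycline for 3 weeks, starting at 8 weeks of age. The control group (2 arrays) is given only as control in its genotype label. The other groups are of the genotype Tln1 Pod-rtTA TetO-Cre. By its name this is a Cre recombinase switched on by doxycycline under a podocyte promoter, acting on Tln1, the gene of the integrin linker talin 1. Of these mice, some received vehicle (Tln1 vehicle, 3 arrays) and others valproic acid, a histone deacetylase inhibitor (Tln1 VPA, 3 arrays), for 2 weeks. Whether control mice received vehicle, and whether each array stands for a separate animal, is not stated in the labels. The p values therefore measure only how these arrays scatter, which may reflect technical steps, and precision is limited by their small number.

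The thick ascending limb takes up sodium, potassium and chloride from the tubule fluid without water, and at its end it touches its own glomerulus at the macula densa. The distal convoluted tubule then reabsorbs salt through the thiazide-sensitive cotransporter, under the control of WNK kinases, and together with the connecting tubule it sets calcium and magnesium excretion. In the collecting duct, principal cells take up sodium through the epithelial sodium channel and water through aquaporins, under aldosterone and vasopressin. Intercalated cells secrete acid or bicarbonate.

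The promoters of 5 members are shown because the results below turn on these genes. Cldn10 and Kcnj16 were lower in every array of the second array set, as was Slc8a1, which is not shown. Umod is the defining gene of the thick ascending limb. Foxi1 and Egf were among the members whose array values did not overlap between Tln1 VPA and control. Each sequence is the 250 bases before a start site in RefSeq, GRCm38.p6, read 5′ to 3′ on the strand of the gene, and capitals mark motif matches.
Cldn10 (chr14:118787621-118787870, plus strand): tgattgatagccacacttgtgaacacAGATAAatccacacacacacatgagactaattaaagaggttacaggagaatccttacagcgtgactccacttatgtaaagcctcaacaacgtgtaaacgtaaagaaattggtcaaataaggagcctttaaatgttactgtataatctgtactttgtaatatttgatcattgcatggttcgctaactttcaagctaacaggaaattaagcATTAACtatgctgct
Kcnj16 (chr11:110967783-110968032, plus strand): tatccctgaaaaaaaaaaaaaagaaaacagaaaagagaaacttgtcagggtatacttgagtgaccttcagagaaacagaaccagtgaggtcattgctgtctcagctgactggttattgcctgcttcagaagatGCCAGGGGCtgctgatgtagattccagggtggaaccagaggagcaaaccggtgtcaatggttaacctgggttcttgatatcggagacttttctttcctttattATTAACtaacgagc
Umod (chr7:119479263-119479512, minus strand): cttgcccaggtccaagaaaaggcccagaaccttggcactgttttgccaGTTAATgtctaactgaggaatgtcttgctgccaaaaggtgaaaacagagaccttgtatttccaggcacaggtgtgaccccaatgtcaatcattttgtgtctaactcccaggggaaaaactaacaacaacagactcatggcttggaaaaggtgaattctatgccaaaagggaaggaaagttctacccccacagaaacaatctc
Foxi1 (chr11:34208090-34208339, minus strand): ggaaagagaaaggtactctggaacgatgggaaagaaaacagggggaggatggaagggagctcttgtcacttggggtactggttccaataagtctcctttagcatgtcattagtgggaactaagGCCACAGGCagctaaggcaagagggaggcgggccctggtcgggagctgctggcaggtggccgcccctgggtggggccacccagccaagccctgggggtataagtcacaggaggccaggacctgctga
Egf (chr3:129755323-129755572, minus strand): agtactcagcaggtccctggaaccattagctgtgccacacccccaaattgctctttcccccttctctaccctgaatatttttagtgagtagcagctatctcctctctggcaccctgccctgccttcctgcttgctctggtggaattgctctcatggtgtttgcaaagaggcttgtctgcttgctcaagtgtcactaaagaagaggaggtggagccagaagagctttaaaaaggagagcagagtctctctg

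The capitals in Cldn10 are a GATA match and, near the start, a match to an HNF1 half-site. Those in Kcnj16 are an AP-2 match and an HNF1 half-site, the one in Umod is an HNF1 half-site and the one in Foxi1 is an AP-2 match. The Egf stretch held none of the motifs searched. Another start site of Kcnj16 and another of Egf had a further match, not shown. The remaining start sites of Kcnj16 and the other start site of Cldn10 (chr14:118854700-118854949) held none of the motifs. Which isoform of Cldn10 uses which start is not given here. The half-site spans bases 15 to 10 before the start in Cldn10 and bases 14 to 9 in Kcnj16, both times on the opposite strand, and bases 202 to 197 in Umod on the strand of the gene. The Slc8a1 promoter held a GATA match and no HNF1 half-site. HNF1 factors are transcription factors of the tubule epithelium, and the AP-2 family includes the member Tfap2b.

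RefSeq promoters were matched for 31 members, which have 40 start sites in the table. The motifs searched on both strands were the HNF1 half-site GTTAAT, the forkhead motif GTAAACA, the GATA motif AGATAA, the AP-2 motif GCCNNNGGC and the core of the cAMP response element TGACGT, and no matches overlapped in the 5 promoters shown. The AP-2 motif was found in 11 of the 40 promoters (27.5%) and in 13.7% of all 32851 promoters of this length. The GATA motif was found in 6 (15%, against 9.99%), the HNF1 half-site in 4 (10%, against 6.43%), the forkhead motif in 4 (10%, against 3.17%) and the cAMP core in 3 (7.5%, against 6.47%). These shares are a description, with no test, and a match does not show a bound site.

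The arrays fell into 2 sets that cut across the groups. The second set holds control 2, Tln1 vehicle 3 and Tln1 VPA 3, and the first set holds the other 5 arrays. The correlation across genes was between 0.990 and 0.995 within the sets and between 0.966 and 0.979 across them. Mean levels of 7 measured podocyte markers were 7.02 to 7.78 in the first and 8.45 to 9.07 in the second set. Those of 12 proximal tubule markers were 11.97 to 12.27 and 10.84 to 11.43. The Y-linked gene Eif2s3y was at 2.69 to 2.91 in the second set, and at 3.80 (control 1) and 5.43 to 7.71 (the 4 Tln1 arrays) within the first. The X-linked gene Xist was at 10.47 to 10.94 in the second set and at 7.38 to 10.14 in the first. Tln1 was at 8.59 to 8.97 in all arrays, which checks no label, because it is not known here whether its probes lie in the deleted stretch. Each comparison below is also given within each set, where control has 1 array. In the first set that array, control 1, was below all 4 Tln1 arrays for Eif2s3y. The Y-linked gene Uty was likewise at 3.67 in control 1 and at 4.85 to 7.22 in those arrays. Y-linked RNA and control against Tln1 cannot be told apart there. The parts that cell composition and sex-linked RNA have in the results were not tested.

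Over all arrays the distal nephron genes were mostly higher in the second array set and the proximal tubule markers lower. The median difference between the second and the first set was 0.29 for the 38 members, -0.77 for proximal tubule markers, 1.41 for podocyte markers and -0.14 for all genes, on the log2 scale. Within the groups the members' median was -0.02 (control), 0.57 (Tln1 vehicle) and 0.31 (Tln1 VPA), so it was near 0 within control. That of all genes was -0.16, -0.12 and -0.15, and that of the proximal tubule markers -0.48, -1.01 and -0.88. Within control, with 1 array in each set, the segments parted. Their medians were -0.67 (thick ascending limb), -0.03 (distal convoluted and connecting tubule), 0.19 (principal cells), 0.37 (intercalated cells) and 0.23 (transcription factors). The mean of the second set was higher for 31 members and lower for 7, while it was higher for 33.9% and lower for 66.1% of all genes. Of the members, 11 lay higher in every array of the second set than in any of the first (13.2% of all genes did), 3 lay lower in every array (36.6% of all genes), and 24 overlapped. Within all 3 groups 17 members were higher (20.1% of all genes) and 3 lower (49%) in the second set. Since the sets were found by clustering these same arrays, these values are a description and carry no test. In such bulk samples, fewer cells of a type and less RNA per cell cannot be told apart. With quantile normalisation the median of all genes moved from -0.14 to -0.00 and that of the members to 0.56, with 33 members higher and 49.6% of all genes higher. The median of the proximal tubule markers moved from -0.77 to -0.36, with all 12 lower, and that of the podocyte markers from 1.41 to 1.61.

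**Figure D1:**
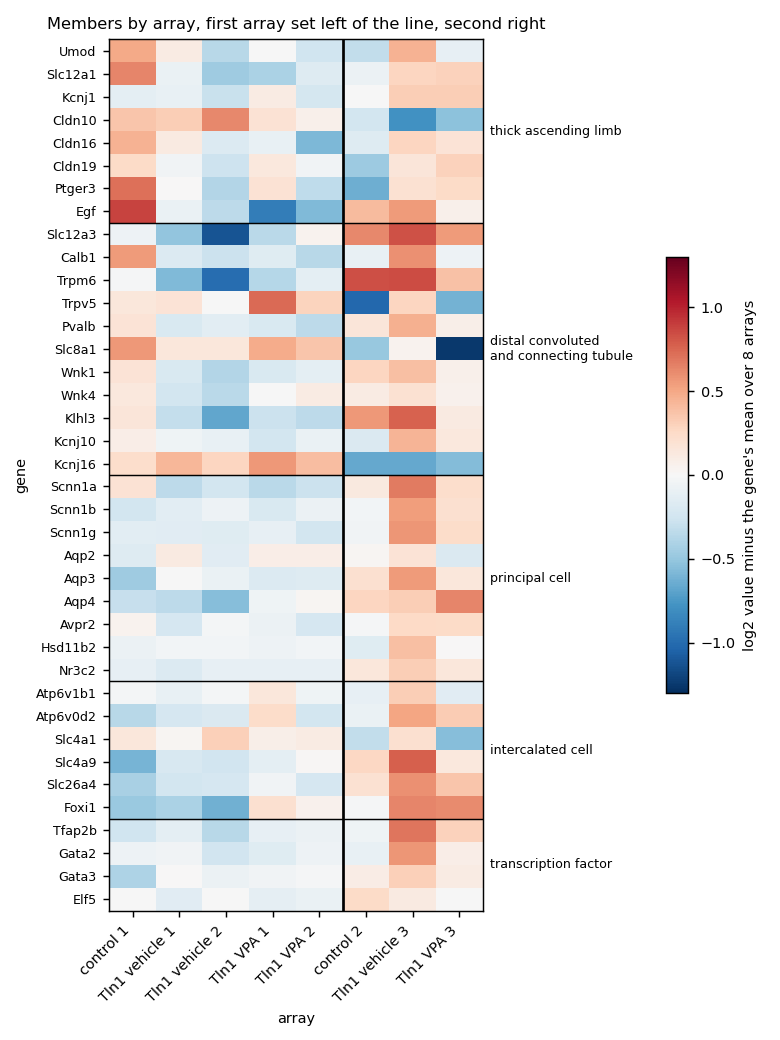
Log2 value of each of the 38 genes (rows, by segment) on each of the 8 arrays (columns), minus the gene's mean over the 8 arrays, with red for higher and blue for lower. Right of the vertical line, in the second array set, the collecting duct genes are mostly red, most of all in Tln1 vehicle 3, and Cldn10 and Kcnj16 are blue in all 3 arrays.

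The thick ascending limb genes differed least between the sets, with a median of 0.09 and 5 of 8 higher (0.37 and 7 of 8 with quantile normalisation). Umod, which encodes uromodulin, the most abundant protein of normal urine, was at 11.69 and 10.87 in control 1 and 2, at 11.30, 10.83 and 11.65 in Tln1 vehicle 1 to 3, and at 11.19, 10.93 and 11.09 in Tln1 VPA 1 to 3. The sets overlapped for this gene. Slc12a1, the NKCC2 cotransporter and target of loop diuretics, was at 10.78 and 10.07 in control, at 10.06, 9.68 and 10.42 in Tln1 vehicle, and at 9.73, 9.98 and 10.44 in Tln1 VPA. In both genes the second-set array was the lower of the 2 control arrays, and in both it was the highest of the Tln1 vehicle arrays.

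This turn of direction between groups was shared by most genes of the limb. Within control the second-set array was lower, with a median difference of -0.67, and within Tln1 vehicle and Tln1 VPA it was higher, with medians of 0.45 and 0.35. Ptger3, a receptor for prostaglandin E2, was at 8.43 in control 1 and 7.08 in control 2, and at 7.34 to 7.96 in the 6 Tln1 arrays. Cldn16 and Cldn19, the tight junction proteins through which calcium and magnesium pass, ranged from 5.75 to 6.79 and from 6.69 to 7.47, and both were highest or second highest in control 1. Kcnj1, the potassium channel ROMK, was higher in the second set within all 3 groups, by 0.12 (control), 0.51 (Tln1 vehicle) and 0.38 (Tln1 VPA).

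Cldn10, a claudin of sodium-permeable junctions in the limb of which another isoform is found in the proximal tubule, stood apart. Its level was 9.20 and 8.60 in control, 9.15, 9.46 and 8.05 in Tln1 vehicle, and 9.02, 8.90 and 8.30 in Tln1 VPA. All 3 second-set arrays lay below all 5 first-set arrays, as for 36.6% of all genes. The mean difference was 0.83 (1.78-fold), in the direction of the proximal tubule markers and of 66.1% of all genes. The array value does not separate isoforms here.

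Distal convoluted tubule genes held both the largest positive and the largest negative differences among the members. Slc12a3, the thiazide-sensitive cotransporter NCC, was at 11.34 and 12.03 in control, at 10.89, 10.29 and 12.24 in Tln1 vehicle, and at 11.06, 11.45 and 11.96 in Tln1 VPA. Every second-set array was above every first-set array, by 1.07 on average (2.10-fold). Trpm6, the magnesium channel of this segment, was at 6.49 and 7.35, at 5.93, 5.52 and 7.36, and at 6.14, 6.38 and 6.89 in the same order, with a difference of 1.11 (2.15-fold) and no overlap of the sets. In both genes the difference was widest within Tln1 vehicle, at 1.65 and 1.63, and smaller within control (0.68 and 0.86) and Tln1 VPA (0.71 and 0.63).

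The kinases and the adaptor that regulate NCC differed in the same direction and by less. Klhl3, which targets WNK kinases for degradation, was at 6.98 to 7.82 in the first set and at 8.22, 8.43 and 7.78 in the second, where Tln1 VPA 3 fell just short of control 1. The difference between the sets was 0.77 for Klhl3, 0.39 for Wnk1 and 0.19 for Wnk4. Wnk1 was higher in the second set within all 3 groups, and Wnk4 was not (control -0.03, Tln1 vehicle 0.49, Tln1 VPA 0.00). Wnk1 is also expressed outside the tubule.

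The potassium channel subunits of the basolateral membrane parted. Kcnj16 (Kir5.1) was at 10.21 and 9.31 in control, at 10.41, 10.26 and 9.31 in Tln1 vehicle, and at 10.54, 10.38 and 9.41 in Tln1 VPA, and was 1.02 lower in the second set (2.02-fold) with no overlap. Within the groups this difference was -0.91, -1.02 and -1.05. Its partner Kcnj10 (Kir4.1), which forms channels with Kir5.1 in the distal convoluted tubule, was at 8.04 to 8.37 in the first set and at 8.09, 8.72 and 8.42 in the second, a difference of 0.21. Kcnj16 is also expressed in the proximal tubule.

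Calcium-handling genes of the late distal tubule gave no common pattern. Slc8a1, the sodium-calcium exchanger NCX1, which muscle cells also express, was at 8.61 and 7.56, at 8.20, 8.20 and 8.09, and at 8.53, 8.41 and 6.79 in control, Tln1 vehicle and Tln1 VPA. It was lower in the second set without overlap, but within Tln1 vehicle by only 0.11. Trpv5, the apical calcium channel, was at 8.27 and 7.10 in control, at 8.30, 8.12 and 8.40 in Tln1 vehicle, and at 8.86, 8.41 and 7.51 in Tln1 VPA. Its low arrays were control 2 and Tln1 VPA 3, while Tln1 vehicle 3 was not low. Calb1, the calcium-binding protein calbindin D28k, was at 11.45 and 10.80, at 10.72, 10.62 and 11.50, and at 10.74, 10.54 and 10.84 in the same order, with control 1 and Tln1 vehicle 3 as the high arrays. Pvalb, parvalbumin of the early distal convoluted tubule, ranged from 5.03 to 5.83.

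All 9 principal cell genes had a higher mean in the second set (median 0.38), and for 5 of them the sets did not overlap. Aqp3, the basolateral water channel, was at 10.27 and 10.94 in control, at 10.73, 10.65 and 11.29 in Tln1 vehicle, and at 10.56, 10.57 and 10.88 in Tln1 VPA. Aqp4, the other basolateral water channel, was at 6.80 and 7.38, at 6.76, 6.55 and 7.42, and at 7.05, 7.13 and 7.74, with second-set arrays higher by 0.58, 0.76 and 0.65 within the groups. Aqp2, the water channel that vasopressin moves to the apical membrane, differed by 0.01 between the sets and spanned 10.47 to 10.84. The receptor gene Avpr2 spanned 7.80 to 8.28, with a difference of 0.27.

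The 3 subunits of the epithelial sodium channel were higher in the second set by 0.55 (Scnn1a), 0.38 (Scnn1b) and 0.41 (Scnn1g). Scnn1g was at 10.49 and 10.58 in control, at 10.48, 10.47 and 11.20 in Tln1 vehicle, and at 10.52, 10.39 and 10.86 in Tln1 VPA. The first-set arrays spanned 10.39 to 10.52, and Tln1 vehicle 3 was the highest array. Scnn1b showed no overlap of the sets either, and Scnn1a did, since control 2 was at 10.29 and control 1 at 10.35. Nr3c2, the mineralocorticoid receptor, was 0.33 higher in the second set without overlap, and Hsd11b2, the enzyme that keeps cortisol and corticosterone off that receptor, spanned 11.07 to 11.61 with a difference of 0.13.

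Among intercalated cell genes the split followed the cell subtype only in part. The median difference was 0.51, with 5 of 6 higher. Slc26a4, pendrin, and Slc4a9, the anion exchanger AE4, which belong to bicarbonate-secreting cells, were higher in every second-set array, by 0.61 and 0.63. Slc26a4 was at 9.38 in control 1 and 0.63 higher in control 2, at 9.56, 9.58 and 10.40 in Tln1 vehicle, and at 9.76, 9.58 and 10.16 in Tln1 VPA. Slc4a1, the exchanger AE1 of acid-secreting cells and also of red cells, was at 8.29 and 7.82, at 8.17, 8.45 and 8.35, and at 8.22, 8.25 and 7.59, and was 0.35 lower in the second set with overlap. None of the 4 listed red cell markers was measured as a single-symbol gene, so red cell RNA was not checked here.

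The proton pump subunits, which both intercalated cell types use, differed by 0.03 (Atp6v1b1, 10.14 to 10.61 over all arrays) and 0.40 (Atp6v0d2, 9.24 to 10.11). Foxi1, the forkhead factor required for intercalated cells, was at 9.06 and 9.53 in control, at 9.13, 8.92 and 10.18 in Tln1 vehicle, and at 9.75, 9.60 and 10.16 in Tln1 VPA. It was 0.66 higher in the second set, and the sets overlapped because Tln1 VPA 1 and 2 lay above control 2.

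The other 4 transcription factors were all higher in the second set, by 0.51 (Tfap2b, of the distal convoluted tubule), 0.31 (Gata2), 0.27 (Gata3, of the collecting duct and also of mesangial cells) and 0.19 (Elf5, of principal cells). Tfap2b and Gata3 did so without overlap. Tfap2b was at 8.15 and 8.36 in control, at 8.28, 8.05 and 9.11 in Tln1 vehicle, and at 8.30, 8.33 and 8.71 in Tln1 VPA. Elf5 spanned 4.37 to 4.77, a low level. A further single-symbol probe set of Gata3 (4.53 to 5.57) was lower in the second set by 0.76, opposite to the one used, and such probe sets of Cldn19 and Nr3c2 were lower by 0.70 and 0.14.

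**Figure D2:**
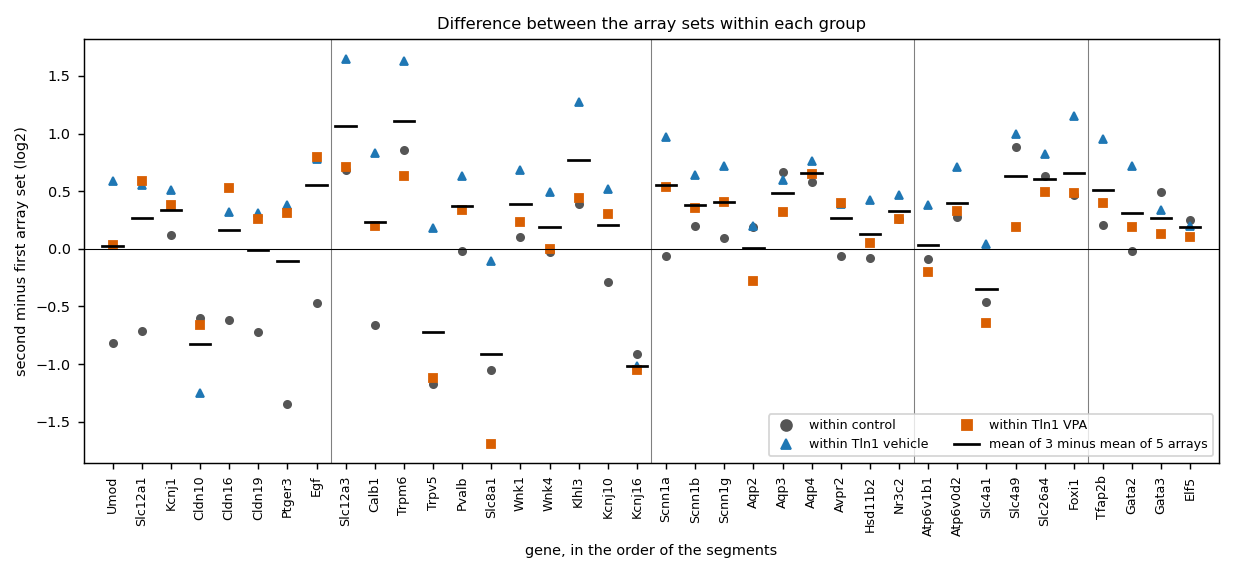
Difference between the second and the first array set (log2) for each of the 38 genes, within control, Tln1 vehicle and Tln1 VPA (symbols) and over all arrays (black bars), with vertical lines between segments. Bars reach from -1.02 for Kcnj16 to 1.11 for Trpm6, and in most limb genes the control symbol lies below 0 while the Tln1 symbols lie above it.

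A second list of 29 measured genes of the same segments (other channels, claudins, proton pump subunits and factors, of 32 listed) differed mostly in the same direction as the members. Their median difference between the sets was 0.38, with 22 higher and 7 lower, 12 above without overlap and 4 below. All 29 were higher with quantile normalisation. Without it, markers of glomerular endothelium were at a median of 0.38, mesangium and smooth muscle at -0.14, macrophages at 0.60 and urothelium at -0.39. With it these medians were 0.67, -0.02, 0.71 and -0.27.

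**Figure D3:**
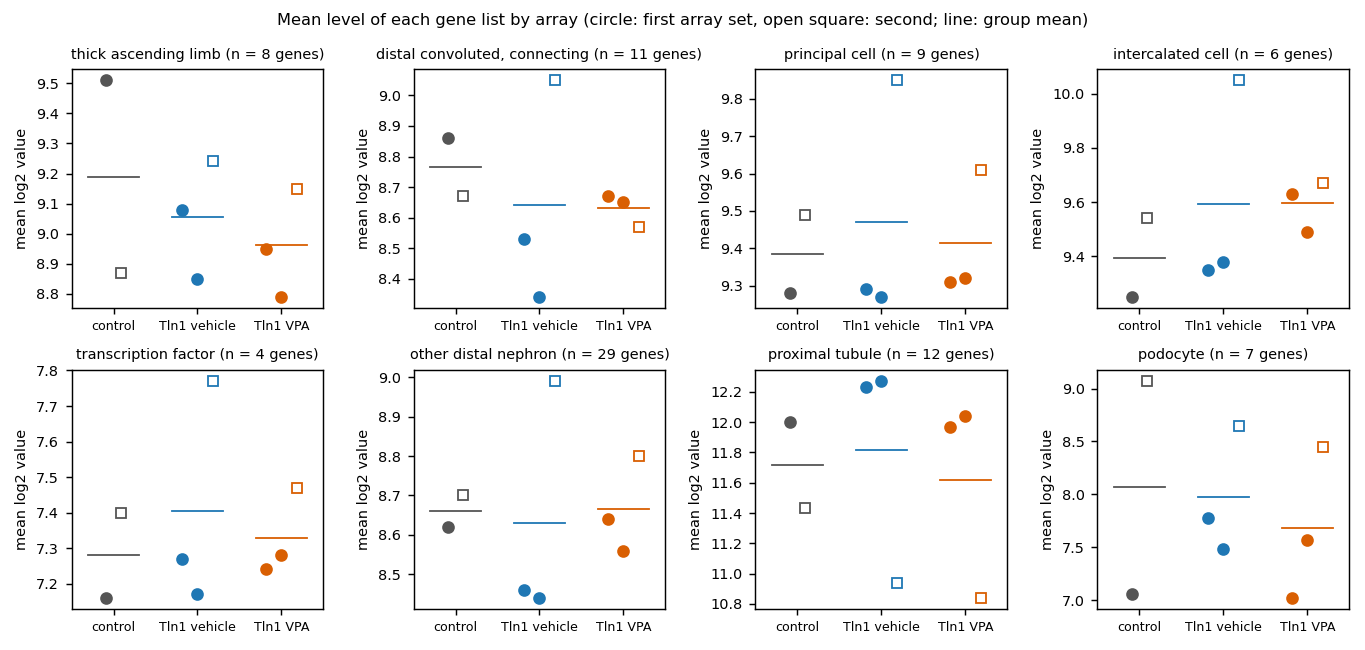
Mean log2 value of the genes of each list on each array, by group, with circles for the first and open squares for the second array set and a line at the group mean. In principal cells every square (9.49 to 9.85) lies above every circle (9.27 to 9.32), whereas in the proximal tubule every square (10.84 to 11.43) lies below every circle (11.97 to 12.27).

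The first comparison between groups, Tln1 vehicle against control, asks what differs after the podocyte change. No member passed the test: limma called 0 of 22180 genes (0% at an adjusted p below 0.05), and of the 322 genes with an unadjusted p below 0.05 (1.45%, with 0.78% higher and 0.672% lower) 0 were members. Of the 38 members 20 were higher and 18 lower, while 55.6% of all genes were higher and 44.4% lower. The median change of the members was 0.05 and that of all genes 0.02. For the members it was -0.08 (first set) and 0.41 (second set), and 10 were higher in both (20.8% of all genes) and 1, Elf5, lower in both (22.5%). It was -0.12 without Tln1 vehicle 3, which turned its sign. Hsd11b2 alone had no overlap of the groups (higher, as for 4.78% of all genes, and 3.59% were lower without overlap), with control arrays at 11.15 and 11.07 and Tln1 vehicle arrays at 11.19, 11.19 and 11.61. Beside these, mesangial and smooth muscle markers had a median of 0.74 (7 of 7 higher, 4 of them at an unadjusted p below 0.05, 0 called), endothelial markers 0.30 (7 of 8 higher, 1 at such a p), proximal tubule markers -0.13 (9 of 12 lower), podocyte markers -0.10 (5 of 7 lower) and macrophage markers -0.10 (4 of 5 lower). Their part in the result was not tested.

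The segments differed in the sign of their medians, and the sets differed more. Limb genes had a median of -0.05 (6 of 8 lower), with -0.56 (first set) and 0.40 (second set), and 0 of the 8 had the same sign in both. Distal convoluted and connecting tubule genes had a median of -0.18 (7 of 11 lower), principal cell genes 0.12 (5 of 9 higher), and intercalated cell genes 0.21 (6 of 6 higher), with 0.09 and 0.52 in the sets. In the second set Tln1 vehicle 3 was above control 2 for 35 of the 38 members (45.4% of all genes), and in the first set the mean of the Tln1 vehicle arrays was below control 1 for 26 (51.8% of all genes).

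Among single genes, Egf had the smallest p. It encodes epidermal growth factor, made in the thick ascending limb and distal convoluted tubule, and control arrays were at 11.61 and 11.14 and Tln1 vehicle arrays at 10.65, 10.39 and 11.29, a difference of -0.59 (SE 0.35, adjusted p = 1.00). It was -1.09 (first set) and 0.16 (second set). Slc12a1 differed by -0.37 (SE 0.31), Slc12a3 by -0.55 (SE 0.55), Trpm6 by -0.65 (SE 0.53), Wnk1 by -0.29 (SE 0.23) and Wnk4 by -0.25 (SE 0.17), each with an adjusted p of 1.00, lower in the first set and at 0.00 to 0.35 in the second. Each lay within 2 standard errors of 0. Single arrays moved these values: Egf was at -0.36 without control 1, Slc12a1 at -0.02 without control 1, and Trpm6 at -0.22 without control 2. If Tln1 vehicle 3 was left out, Slc12a3 was at -1.10 and Trpm6 at -1.19, and if Tln1 vehicle 2 was left out, Slc12a3 was at -0.12. Trpv5 was at 0.59 (SE 0.44), Slc4a1 at 0.27 (SE 0.24), Scnn1b at 0.25 (SE 0.23), Gata3 at 0.23 (SE 0.18) and Hsd11b2 at 0.22 (SE 0.15). The segment markers Umod (-0.02, SE 0.30), Calb1 (-0.18, SE 0.30), Aqp2 (0.12, SE 0.16), Scnn1g (0.18, SE 0.25), Atp6v1b1 (0.13, SE 0.16) and Slc26a4 (0.16, SE 0.32) lay within 1 standard error of 0.

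When array set entered the fit as a blocking term, 4 members had an unadjusted p below 0.05 for a higher value (3.01% of all genes did) and 0 for a lower one (4.3%), of 7.3% in either direction. These were Aqp3 (0.37, SE 0.10), Gata3 (0.29, SE 0.10), Scnn1b (0.32, SE 0.11) and Slc26a4 (0.27, SE 0.11), with Aqp3 and Scnn1b from principal cells and Slc26a4 from intercalated cells. Aqp3 was named after its value was seen. None passed over all genes (smallest adjusted p = 0.493, limma), nor did any other gene. Since the sets were found by clustering these same arrays, the blocked p values do not allow for that choice. This holds for the later comparisons too. Aqp3 was higher in Tln1 vehicle by 0.42 (first set) and 0.35 (second set).

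The second comparison, Tln1 VPA against Tln1 vehicle, asks what valproic acid changed in these mice. Again limma called 0 of 22180 genes (0%), and 280 genes (1.26%) but 0 members had an unadjusted p below 0.05 (0.834% higher and 0.428% lower). For 28 members the mean was lower and for 10 it was higher, while 48.5% of all genes were lower and 51.3% higher. The median change of the members was -0.06 (all genes 0.00), being 0.07 (first set) and -0.32 (second set). Without Tln1 vehicle 3 it was 0.11, and without Tln1 vehicle 2 it was -0.17. The groups overlapped for all 38 members, where 1.98% of all genes were higher and 1.57% lower without overlap, 3.55% in all. Endothelial markers had a median of -0.46 (8 of 8 lower, 2 at an unadjusted p below 0.05) and macrophage markers one of 0.49 (5 of 5 higher, 2 at such a p). Mesangial and smooth muscle markers had a median of -0.36 (6 of 7 lower, 2 at such a p), podocyte markers -0.32 (6 of 7 lower) and proximal tubule markers -0.09 (11 of 12 lower), with 0 called in any list. Their part in the result was not tested.

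Members lower in both sets numbered 14 (20.4% of all genes were) and members higher in both numbered 4 (22.4%). The latter were Aqp4, Kcnj16, Cldn19 and Ptger3, named after their values were seen. Among principal cell genes 8 of 9 were lower with a median of -0.13, with Aqp4 as the exception. Limb genes had a median of -0.08, distal convoluted and connecting tubule genes -0.02, and intercalated cell genes -0.05.

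Egf had the smallest p here too, at -0.51 (SE 0.31, adjusted p = 1.00), with Tln1 VPA arrays at 9.83, 10.16 and 10.80 and changes of -0.52 and -0.49 in the sets. Aqp4 was at 0.40 (SE 0.29) with 0.44 and 0.32 in the sets, and Foxi1 at 0.43 (SE 0.33) with 0.65 and -0.02. All 3 lay within 2 standard errors of 0. Without Tln1 vehicle 3 they were at -0.25, 0.65 and 0.81, without Tln1 vehicle 2 Foxi1 was at 0.18, and without Tln1 VPA 3 Aqp4 was at 0.18. Slc4a1 was at -0.31 (SE 0.21), Wnk4 at 0.18 (SE 0.15), Hsd11b2 at -0.14 (SE 0.14), Pvalb at -0.19 (SE 0.20), Cldn16 at -0.24 (SE 0.25), Aqp3 at -0.22 (SE 0.23) and Calb1 at -0.24 (SE 0.27), each with an adjusted p of 1.00. The remaining segment markers lay within 1 standard error of 0: Umod at -0.19 (SE 0.27), Slc12a1 at -0.01 (SE 0.28), Slc12a3 at 0.35 (SE 0.49), Aqp2 at -0.05 (SE 0.14), Scnn1g at -0.13 (SE 0.22), Atp6v1b1 at -0.08 (SE 0.15) and Slc26a4 at -0.01 (SE 0.28).

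In the fit blocked on array set, Aqp4 (0.40, SE 0.08) and Foxi1 (0.43, SE 0.16) had an unadjusted p below 0.05 for a higher value (3.32% of all genes) and Aqp3 (-0.22, SE 0.09) for a lower one (2.11%), of 5.43% in either direction. The smallest adjusted p among the members was that of Aqp4 (0.789, limma), so none passed. The Aqp3 value in Tln1 VPA lay between those of control and Tln1 vehicle within the first set, and below both within the second.

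**Figure D4:**
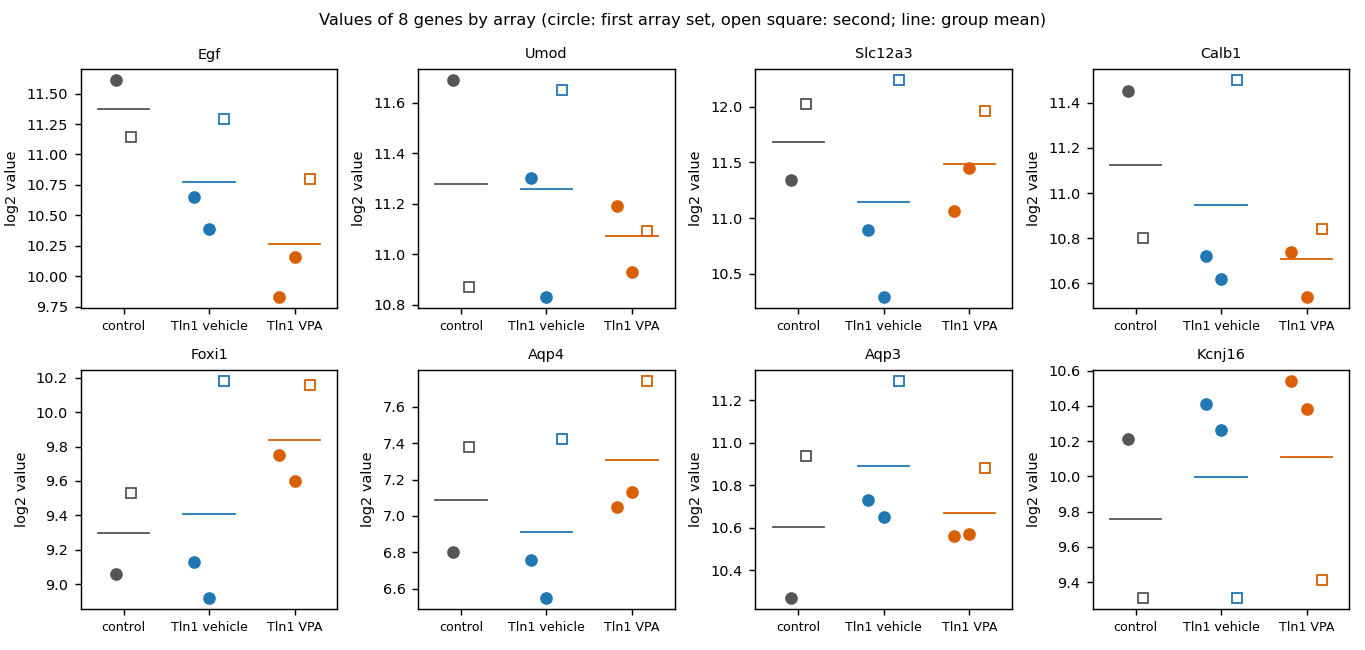
Log2 values of 8 genes on each array, by group, with circles for the first and open squares for the second array set and a line at the group mean. For Egf, every Tln1 VPA array (9.83 to 10.80) lies below both control arrays (11.14 and 11.61), and for Foxi1 every Tln1 VPA array (9.60 to 10.16) lies above both (9.06 and 9.53).

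The third comparison, Tln1 VPA against control, shares its arrays with the other 2, so its values are not independent of theirs. limma called 0 of 22180 genes (0%), and of the 414 genes with an unadjusted p below 0.05 (1.87%) 1 was a member, Egf, which was lower (0.64% of all genes, with 1.23% higher). Its level was 11.37 ± 0.33 (SD, n = 2) in control, 10.78 ± 0.47 (n = 3) in Tln1 vehicle and 10.27 ± 0.49 (n = 3) in Tln1 VPA. The difference of -1.11 (SE 0.35, 2.15-fold lower) did not pass over all genes (limma, adjusted p = 1.00). It was -1.61 (first set) and -0.33 (second set), and blocked on array set it was -1.03 (SE 0.30, adjusted p = 0.43). Of the 12 proximal tubule markers 10 were lower beside it (median -0.21, range -0.84 to 1.81), 8 in both sets (22.9% of all genes). In the fit blocked on array set 7 of them were lower at an unadjusted p below 0.05 (4.06% of all genes). Of the second list of 29 distal nephron genes 18 were higher and 11 lower (median 0.02). Podocyte markers were lower in 7 of 7 (median -0.39) and endothelial markers in 7 of 8 (-0.11), while mesangial and smooth muscle markers were higher in 6 of 7 (0.32) and macrophage markers in 4 of 5 (0.36), with 0 called in any list. Their part in the Egf value was not tested.

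Of the other limb genes Cldn10 alone was lower in both sets, at -0.24 and -0.30, and is named after its values were seen. Slc12a1 was at -0.38 (SE 0.31), being -0.93 (first set) and 0.37 (second set), and Umod at -0.21 (SE 0.30), with -0.63 and 0.22. The limb median was -0.19, with 6 of 8 lower. Calb1 was at -0.42 (SE 0.30), with -0.81 and 0.05 in the sets. For Slc12a1, Umod and Calb1 the Tln1 VPA value was thus lower in the first set, against control 1, and higher in the second. The distal convoluted and connecting tubule median was -0.19, with 9 of 11 lower and 7 lower in both sets.

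In all, 6 members had lower values in every Tln1 VPA array than in either control array (3.98% of all genes) and 2 had higher values in every one (5.57%, or 9.55% in either direction). Those lower were Egf, Pvalb (-0.31, SE 0.22), Wnk1 (-0.31, SE 0.23), Wnk4 (-0.07, SE 0.17), Klhl3 (-0.53, SE 0.40) and Elf5 (-0.19, SE 0.14). They include 4 genes of the distal convoluted tubule, among them all 3 listed regulators of NCC, while Slc12a3 itself, at -0.19 (SE 0.55), overlapped. These regulators were no list of their own and were not tested as a group, and Wnk4 lay within 1 standard error of 0. For 2 of the 6 the separation was smaller than the rounding of the values. Wnk4 was at 8.59 in both control 2 and Tln1 VPA 2, and Elf5 at 4.52 in both control 1 and Tln1 VPA 3. Klhl3 was at -0.48 and -0.44 in the sets and Wnk1 at -0.34 and -0.21. Those higher were Foxi1 (0.54, SE 0.37) and Hsd11b2 (0.08, SE 0.15), and Wnk4 and Hsd11b2 were named after their values were seen. All had an adjusted p of 1.00.

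Foxi1 differed by 0.62 (first set) and 0.63 (second set), and blocked on array set by 0.66 (SE 0.18, limma, adjusted p = 0.401). The intercalated cell genes had a median of 0.16, with 5 of 6 higher but 3 higher in both sets, namely Foxi1, Atp6v0d2 and Slc26a4. Without control 1 Foxi1 was at 0.31. Atp6v0d2 was at 0.33 (SE 0.27), with 0.36 and 0.41 in the sets, Slc26a4 at 0.14 (SE 0.32), with 0.29 and 0.16, and Atp6v1b1, the other pump subunit, at 0.05 (SE 0.16), with 0.07 and -0.03. Slc4a9 was at 0.55 and -0.14 in the sets, and Slc4a1 was lower in both, at -0.05 and -0.24. The intercalated cell genes thus did not share a direction across the sets. Trpv5 was at 0.58 (SE 0.44), Scnn1g at 0.05 (SE 0.25) and Aqp2 at 0.07 (SE 0.16).

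In the blocked fit, 3 members had an unadjusted p below 0.05 for a higher value (4.06% of all genes): Foxi1, Aqp4 (0.33, SE 0.09) and Atp6v0d2 (0.41, SE 0.17). Egf alone did for a lower one (4.06%), of 8.12% in either direction. None passed over all genes. In the unblocked fit 18 members were higher and 20 lower (56.8% and 43.2% of all genes), with a median of -0.01, and 11 were higher (22.4% of all genes) and 11 lower (22.9%) in both sets. In the second list of 29 genes, 0 were called in any of the 3 comparisons, and their medians were -0.00, 0.04 and 0.02 for Tln1 vehicle against control, Tln1 VPA against Tln1 vehicle and Tln1 VPA against control.

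**Figure D5:**
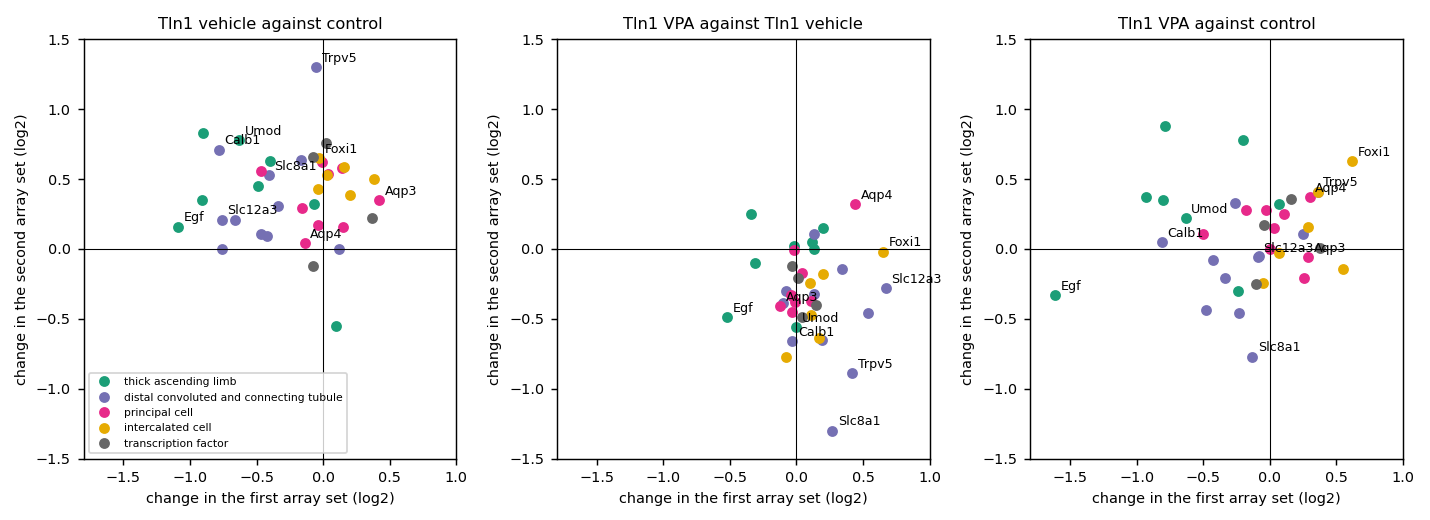
Log2 change of each of the 38 genes in the first array set (horizontal) and in the second array set (vertical) for the 3 comparisons, coloured by segment, with some genes named. Most points of Tln1 vehicle against control lie above the horizontal line (median 0.41 in the second set), those of Tln1 VPA against Tln1 vehicle mostly below it (-0.32), and Egf lies lower left in the last 2 panels.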

How the data were processed

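Expression was deposited by the authors on a log2 scale, 1 value per probe set and array. The submitters' processing notes list RMA and limma. No version or build is given in the sources used here. The table has 41345 probe sets and values from 1.49 to 13.9, not centred per gene, and array medians were 4.14 to 4.29. Whether all arrays were normalised jointly is unknown. In the platform annotation, 23521 probe sets have 1 symbol, 1814 several and 16010 none. The probe set with the highest mean was kept per gene, with no filter on low values. Groups were compared with lmFit and eBayes (limma 3.58.1, R 4.3.3), all 8 arrays in 1 fit with group as the only term, two-sided, with Benjamini-Hochberg adjustment over 22180 genes. The fit was tested on simulated data, drawn independently for each array and so without array sets. Of 100 genes raised by 1 on the log2 scale it called 47%, 53% and 40% in the 3 comparisons, in the order of the text. Of 100 raised by 2 it called 80%, 93% and 73%, and it also called 9, 12 and 3 unchanged genes.

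The members, segments, lists and array sets were chosen with earlier results of these data known. Changes are given for the 10 members with the smallest p per comparison and for 8 segment markers (Umod, Slc12a1, Slc12a3, Calb1, Aqp2, Scnn1g, Atp6v1b1 and Slc26a4). Tln1 vehicle and Tln1 VPA arrays of equal number shared deviations from the means of their groups (correlation across genes 0.570, 0.609 and 0.787). Arrays of unequal number in the same array set did so nearly as much (0.510 and 0.515). In these 2 groups equal numbers always share an array set. Control 2 shares its number but not its set with Tln1 vehicle 2 (-0.591) and Tln1 VPA 2 (-0.496). It shares its set but not its number with Tln1 vehicle 3 (0.690) and Tln1 VPA 3 (0.674). For control the shared deviations thus followed array set and not number. The labels state no pairing. Control shares 2 numbers with each Tln1 group and was not paired. The fit of the first array set alone was added after the data had been seen. Figures were drawn with matplotlib 3.10.9.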

Additional observations from a re-analysis of the deposited data

How the results depend on the processing

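Under 16 alternatives and the first array set alone, 0 members were called in any comparison. Over all genes the count of calls was 0 except with the replicate block, which called 4 genes in Tln1 vehicle against control and 1 in Tln1 VPA against control, where the numbers do not pair the arrays; for Tln1 VPA against Tln1 vehicle it called 0. The median change of the members moved to -0.08 with the replicate block and to -0.08 in the first array set alone in Tln1 vehicle against control (-0.12 to 0.13 leaving out each array), and to 0.07 in the first set alone in Tln1 VPA against Tln1 vehicle (-0.17 to 0.11). With quantile normalisation the median difference between the array sets was 0.56 for the members, 0.37, 0.48, 0.74 and 0.86 for the thick ascending limb, distal convoluted, principal and intercalated cell genes and 0.50 for the transcription factors. The cause was not tested.

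Signs of small changes turned in these cases. In Tln1 vehicle against control, Slc26a4 was at -0.06 with the replicate block, and Atp6v1b1, Scnn1g and Trpv5 at -0.04, -0.01 and -0.05 in the first set alone; leaving out each array gave -0.06 to 0.31 for Scnn1g, -0.43 to 0.39 for Umod, -0.50 to 0.15 for Calb1, -0.16 to 0.47 for Slc26a4 and -0.01 to 0.48 for Gata3. In Tln1 VPA against Tln1 vehicle, Aqp2, Atp6v1b1 and Slc26a4 were at 0.11, 0.11 and 0.10 in the first set alone; leaving out each array gave -0.31 to 0.02 for Pvalb, -0.18 to 0.26 for Slc26a4, -0.15 to 0.04 for Aqp2, -0.17 to 0.05 for Atp6v1b1, -0.20 to 0.18 for Slc12a1, -0.27 to 0.11 for Scnn1g, -0.40 to 0.04 for Calb1, -0.07 to 0.90 for Slc12a3 and -0.40 to 0.01 for Umod. In Tln1 VPA against control, Scnn1g was at -0.13 and Slc26a4 at -0.08 with the replicate block, and Scnn1g at -0.03 in the first set alone; leaving out each array gave -0.03 to 0.12 for Atp6v1b1, -0.02 to 0.17 for Aqp2, -0.62 to 0.20 for Umod, -0.01 to 1.16 for Trpv5, -0.08 to 0.15 for Scnn1g, -0.53 to 0.15 for Slc12a3 and -0.17 to 0.46 for Slc26a4. Leaving out 1 array moved the size by over 1.5 times for 17 of 17, 17 of 17 and 13 of 16 named members in the comparisons in this order. The sign was kept leaving out any array for 12 of 17, 8 of 17 and 9 of 16. Egf, Foxi1 and Klhl3 were among these, but not with constant sizes: Egf spanned -0.85 to -0.36, -0.78 to -0.25 and -1.38 to -0.87, Foxi1 spanned 0.18 to 0.81 (Tln1 VPA against Tln1 vehicle) and 0.31 to 0.78 (against control), and Klhl3 -0.73 to -0.33 (against control). Within the second set Egf was at 0.16 in Tln1 vehicle against control, and Foxi1 at -0.02 in Tln1 VPA against Tln1 vehicle.

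The deposited values give no signal over background, so the precision of dim probe sets such as Elf5 is unknown here.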
